A study of Mus musculus with 16 samples.

Results

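The C-type lectin receptors of myeloid cells are surface proteins with a lectin-like domain that read sugars and lipids of fungi and bacteria, crystals, and molecules of dead or neighbouring cells. Activating members signal through a tyrosine motif of their own or of a small adaptor to the kinase Syk, and from there to the adaptor CARD9 and to cytokine genes. Inhibitory members carry a motif that recruits phosphatases. Neutrophils use the activating members to recognise fungi and mycobacteria and the inhibitory members to restrain that response. The set described here holds 8 genes, Clec7a, Clec4n, Clec4d, Clec4e, Clec5a, Clec4a2, Clec12a and Clec2d. They were chosen by gene symbol, with earlier results of these data known. The Ensembl identifiers of the deposited table were matched to GENCODE names. The set makes up 8 of 54532 identifiers in the table and 8 of 9851 genes tested. All of them passed the filter on low counts.

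The cells were liver neutrophils of 8 C57BL/6 mice, numbered 2 to 9, that carried mixed marrow. The Ifngr1_KO group holds 8 libraries of CD45.2+ neutrophils from Ifngr1-/- marrow, and the WT group holds 8 libraries of CD45.1+ neutrophils from wild-type marrow of the same 8 mice. Every host was a wild-type mouse irradiated with about 1000 cGy and given 50% marrow of each genotype, with 8 weeks of reconstitution. Each then carried an MC38 flank tumour (a mouse colon carcinoma line) and received CD40 agonist (aCD40) 1 week later, and livers were taken 2 days after the agonist. Both groups therefore carry the irradiation, the tumour and the agonist, no group lacks the agonist, and animal age was not among the labels used here. In each animal the genotypes also differed in CD45 allele, donor of the marrow and gate of the sort, which cannot be told apart from genotype.

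The libraries held 12.5 to 21.7 M estimated counts, with 13.9 ± 1.502 M in Ifngr1_KO and 16.9 ± 3.27 M in WT (SD, n = 8 each). Ifngr1 itself averaged 83.9 ± 29.5 CPM (a gene's count relative to the library's total, scaled between libraries) in Ifngr1_KO and 305 ± 46.6 CPM in WT, with no overlap between the groups (log2 fold change -1.94, SE 0.20, edgeR adjusted p = 2.5e-04). Of the 14 neutrophil markers listed, 12 were tested, with a median log2 fold change of -0.32 and 9 below 0. S100a8, the most abundant, averaged 18576 ± 11261 CPM in Ifngr1_KO and 13938 ± 3814 CPM in WT and was not called (edgeR adjusted p = 0.412). The 2 called ones, both lower, were the granule genes Ltf (355 CPM in Ifngr1_KO and 680 CPM in WT) and Ngp (2075 CPM in Ifngr1_KO and 3119 CPM in WT). Elane, an early granule gene, had 2.06 CPM in Ifngr1_KO and 0.487 CPM in WT, on 0 to 45 counts per library. It was higher in 8 of 8 mice and not called (edgeR adjusted p = 0.142), and 10.2% of all genes tested were higher in at least 7 mice. The 2 markers not tested, Fcnb and Mpo, were higher in Ifngr1_KO in 5 and 3 mice and lower in 2 and 3. In mouse 7 the Ifngr1_KO library was unlike the others, with a median correlation of 0.800 with the other libraries against 0.877 to 0.925 for the rest.

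All 8 genes lie on chromosome 6 (mm10). Clec4a2 (123106428 to 123143999, plus strand), Clec4n (123229843 to 123247021, plus), Clec4d (123262111 to 123275265, plus) and Clec4e (123281789 to 123289870, minus) sit within 183 kb. Clec2d (129180615 to 129186534, plus), Clec12a (129342691 to 129365303, plus) and Clec7a (129461591 to 129472779, minus) sit within 292 kb, 5.89 Mb further along. Clec5a (40574894 to 40585821, minus) lies on its own. No exon of these genes shares a base with an annotated exon of another gene. Clec4a2 belongs to a row of close copies (Clec4a1, Clec4a3, Clec4a4), so the share of reads given to each copy is uncertain.

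RefSeq promoter windows (build GRCm38.p6, 250 bases before to 50 bases after the transcript start) were matched by symbol for 7 of the 8 genes, and Clec4n was not matched. Clec7a had 2 entries, and the one nearest to the annotated gene start was used. The starts of the Clec4a2 and Clec12a entries lie inside the annotated spans of their genes. They were searched on both strands for TTCNNNGAA (the GAS element, the interferon gamma activation site), GAAA followed by any 2 bases and GAAA again (the interferon-stimulated response element), GAGGAA (the core of PU.1 sites) and TTNNGNAAT (a C/EBP element). The window of Clec7a is shown because Clec7a was the 1 receptor called in the genotype comparison, and those of Clec4a2, Clec4d and Clec2d because they hold an interferon-type element. Capitals mark any of the 4 motifs, and every sequence reads 5′ to 3′ on the strand of its gene.
Clec7a, chr6:129472730-129473029, minus strand: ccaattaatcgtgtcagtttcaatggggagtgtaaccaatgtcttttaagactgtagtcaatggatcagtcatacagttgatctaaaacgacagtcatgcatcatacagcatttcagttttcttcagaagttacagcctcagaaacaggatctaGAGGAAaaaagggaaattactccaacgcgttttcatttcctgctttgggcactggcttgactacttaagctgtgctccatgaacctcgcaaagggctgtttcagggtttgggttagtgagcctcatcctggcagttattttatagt
Clec4a2, chr6:123122440-123122739, plus strand: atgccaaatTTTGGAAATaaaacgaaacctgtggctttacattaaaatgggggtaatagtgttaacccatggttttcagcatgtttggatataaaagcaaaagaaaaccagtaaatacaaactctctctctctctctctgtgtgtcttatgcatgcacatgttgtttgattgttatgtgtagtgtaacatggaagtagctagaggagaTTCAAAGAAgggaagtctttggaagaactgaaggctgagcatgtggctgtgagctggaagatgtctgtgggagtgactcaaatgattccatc
Clec4d, chr6:123261857-123262156, plus strand: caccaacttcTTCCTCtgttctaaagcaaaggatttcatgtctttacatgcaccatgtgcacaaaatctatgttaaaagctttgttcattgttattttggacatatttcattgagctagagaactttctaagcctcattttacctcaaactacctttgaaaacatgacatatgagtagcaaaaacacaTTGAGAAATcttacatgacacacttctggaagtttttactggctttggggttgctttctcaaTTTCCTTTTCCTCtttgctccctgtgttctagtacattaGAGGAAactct
Clec2d, chr6:129180365-129180664, plus strand: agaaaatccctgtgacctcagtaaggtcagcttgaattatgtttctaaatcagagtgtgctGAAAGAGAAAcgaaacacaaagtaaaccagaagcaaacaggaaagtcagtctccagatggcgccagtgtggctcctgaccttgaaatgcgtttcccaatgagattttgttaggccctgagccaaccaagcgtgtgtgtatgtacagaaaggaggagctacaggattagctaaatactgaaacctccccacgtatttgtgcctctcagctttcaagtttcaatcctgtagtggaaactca
The window of Clec7a held GAGGAA at position -96 from the start and neither interferon-type element. Clec4a2 held the GAS letters at position -42, and Clec2d the response-element letters at position -189. In Clec4d the response-element letters began at the start itself and overlapped a GAGGAA match. Among all 32851 windows of this length, 8.30% held the GAS letters, 3.44% the response-element letters, 28.3% GAGGAA and 11.5% the C/EBP letters. Among the 7 receptor windows, 1 held GAS letters, 2 response-element letters, 5 GAGGAA and 3 C/EBP letters. A match of letters is a description of the window and not a measured site.

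Per kilobase of exon the receptors spanned a wide range of levels in these neutrophils. Clec4n, which encodes Dectin-2, a receptor for fungal mannans, was the most abundant of the 8 in every one of the 16 libraries, with 511 ± 73.9 CPM per kilobase in Ifngr1_KO and 525.8 ± 69.6 in WT (SD, n = 8 each). Clec4e, which encodes Mincle, a receptor for the mycobacterial cord factor, had 282 ± 33.9 in Ifngr1_KO and 310 ± 55.1 in WT. Its partner Clec4d had 237 ± 70.4 CPM per kilobase in Ifngr1_KO and 267 ± 54.1 in WT. Clec4e was above Clec4d in 7 of 8 Ifngr1_KO and 6 of 8 WT libraries, so the order of these neighbours was not the same in every library. With the longest transcript in place of all exons as the length, Clec4d (323 CPM per kilobase) was above Clec4e (321) in the WT mean.

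Clec7a and Clec5a came next by mean level per kilobase. Clec7a had 103 ± 24.9 CPM per kilobase in Ifngr1_KO and 162 ± 41.1 in WT, and Clec5a had 89.9 ± 17.6 in Ifngr1_KO and 98.3 ± 25.0 in WT. Clec7a was above Clec5a in 5 of 8 Ifngr1_KO libraries and in 8 of 8 WT libraries. A step of 5.44-fold separated the mean level per kilobase of Clec5a from that of Clec4a2, which had 14.9 ± 3.17 in Ifngr1_KO and 19.6 ± 4.88 in WT. Clec12a (4.79 ± 1.84 CPM per kilobase in Ifngr1_KO and 4.97 ± 1.48 in WT) and Clec2d (4.29 ± 2.79 in Ifngr1_KO and 3.77 ± 1.75 in WT) were lowest, and their order changed between libraries. Of the summed level per kilobase of the 8 receptors, Clec4n held 41.0 ± 2.55% in Ifngr1_KO and 38.0 ± 3.71% in WT, and Clec7a held 8.39 ± 2.05% in Ifngr1_KO and 11.6 ± 1.87% in WT. Against all genes tested, mean levels per kilobase ranked from percentile 60.4 for Clec2d to percentile 98.4 for Clec4n.

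**Figure D1:**
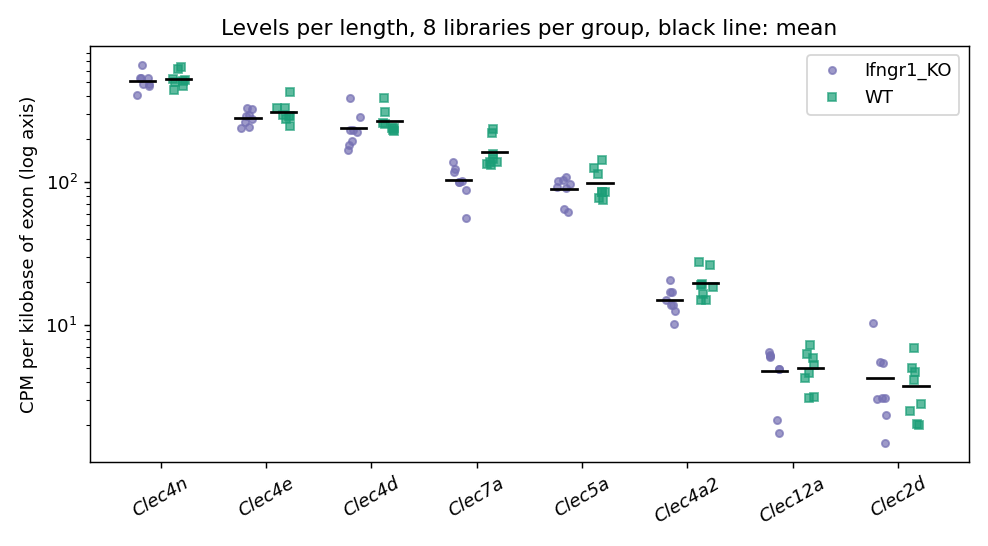
Level of each receptor in CPM per kilobase of exon (log axis), 1 point per library, with 8 Ifngr1_KO libraries (circles) left of 8 WT libraries (squares) and a black line at the group mean. Clec4n is highest and Clec12a and Clec2d are lowest, with a step of 5.44-fold in mean level between Clec5a and Clec4a2.

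The genotype comparison sets neutrophils from Ifngr1-/- marrow, the gene of an interferon gamma receptor chain, beside wild-type neutrophils of the same liver. Of the 8 receptors, 1 fell (Clec7a), none rose and 7 were not called, in edgeR's quasi-likelihood test with mouse as a block and an adjusted p under 0.05 over all genes. Over all genes tested, 2.32% were called lower and 0.477% higher, and 2.8% in either direction. That is 229 genes lower and 47 higher, and with library totals as the scaling it was 164 lower and 102 higher. The log2 fold change was below 0 for 7 of the 8, and their median was -0.12 against 0.05 over all genes tested. The groups overlapped for every one of the 8, while 1.48% of all genes tested had every Ifngr1_KO library below every WT library.

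Clec7a encodes Dectin-1, the receptor for fungal beta-glucan that carries its own activating tyrosine motif. Its lowest, median and highest levels were 147, 265 and 363 CPM in Ifngr1_KO, against 344, 373 and 620 CPM in WT. The groups met only at their edges, where 1 Ifngr1_KO library, that of mouse 9, lay above the lowest WT library and 3 WT libraries lay below it. The mean was 272 ± 65.6 CPM in Ifngr1_KO and 427 ± 108 CPM in WT (SD, n = 8 each). Clec7a had a log2 fold change of -0.66 (SE 0.14), with an edgeR adjusted p of 0.0271, which puts Ifngr1_KO at 63.3% of the WT level, with a 95% interval of 51.4% to 78.0%. Clec7a was lower in Ifngr1_KO in 8 of 8 mice, which held for 4.93% of all genes tested. Within mice, the log2 ratio ran from -1.26 in mouse 7 and -1.12 in mouse 3 to -0.16 in mouse 5.

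The direction of the Clec7a difference was the same under all 16 alternatives, and the call held under 7 of them. It was lost without the mouse block (log2 fold change -0.65, edgeR adjusted p = 0.0625), with library totals as the scaling (-0.55, 0.0759), with a covariate for mitochondrial share (-0.56, 0.446) and without mouse 2, 3, 4, 6, 8 or 9, where the log2 fold change was -0.64, -0.59, -0.68, -0.70, -0.69 and -0.64 and the adjusted p 0.0772, 0.108, 0.0649, 0.0587, 0.0686 and 0.0845. Without mouse 7 it was -0.57 with an adjusted p of 0.0218.

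Several library measures differed between genotypes beside Clec7a. Total counts were lower in Ifngr1_KO in 7 of 8 mice (adjusted p = 0.0469, exact sign-flip test). The mitochondrial share did not pass the adjusted threshold. Mitochondrially encoded mRNAs took 1.39 ± 0.656% of counts in Ifngr1_KO and 0.595 ± 0.272% in WT (exact two-sided sign-flip test over 8 mice, p = 0.0313, adjusted p = 0.0625 over 12 measures). The summed level of the 8 monocyte markers ranged from 1484 to 2632 CPM in Ifngr1_KO and from 2172 to 3419 CPM in WT, with the Ifngr1_KO library the lower one in all 8 mice (adjusted p = 0.0313, exact sign-flip test). Of these 8 genes 7 were tested and 1, Ly6c2, was called lower. Without Ly6c2 the sum was 1326 ± 426 CPM in Ifngr1_KO and 1538 ± 191 CPM in WT (exact sign-flip p = 0.164), most of it from Csf1r, with 1287 CPM in Ifngr1_KO and 1497 CPM in WT. Ly6c2 was taken out because it was called in this same comparison, so that p cannot show that the other markers are unchanged. Ccr2 averaged 1.38 CPM in Ifngr1_KO and 0.836 CPM in WT, on 0 to 54 counts per library. It was lower in Ifngr1_KO in 4 mice and higher in 3. Of the 7 tested monocyte markers, 5 had a log2 fold change below 0.

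The 12 Kupffer cell and macrophage markers summed to 39.7 to 82.7 CPM in Ifngr1_KO and 53.7 to 155 CPM in WT (lower in 8 of 8 mice, exact sign-flip adjusted p = 0.0313), and Adgre1 was the 1 of 5 tested members called. Without Adgre1 the sum was 27.6 ± 5.05 CPM in Ifngr1_KO and 29.3 ± 7.29 CPM in WT (p = 0.289, exact). Of the 12 genes, 7 were not tested, among them Vsig4, at 0 in all 16 libraries, and Clec4f, itself a C-type lectin, with 10 counts at most in any library. Of the other tested ones, C1qb averaged 13.3 CPM in Ifngr1_KO and 14.8 CPM in WT, and Cd5l 1.95 CPM in Ifngr1_KO and 1.64 CPM in WT. Cd5l had 0 to 103 counts per library and was lower in Ifngr1_KO in 5 of 8 mice. Of the 5 tested markers of this list, 4 had a log2 fold change below 0. The 9 dendritic cell markers summed to 133 to 180 CPM in Ifngr1_KO and 112 to 210 CPM in WT, with Clec9a, another lectin of this chromosome region, at 0.221 CPM in Ifngr1_KO and 0.164 CPM in WT. The B cell markers summed to 73.6 ± 8.39 CPM in Ifngr1_KO and 213 ± 49.9 CPM in WT (lower in 8 of 8 mice, exact sign-flip adjusted p = 0.0313). Ighm, the 1 called gene of that list, averaged 57.6 CPM in Ifngr1_KO and 198 CPM in WT, and without it the sum was 16.04 ± 7.45 CPM in Ifngr1_KO and 15.0 ± 5.52 CPM in WT (exact sign-flip p = 0.664). Adgre1 and Ighm were likewise taken out because they were called, so neither p shows that the rest of its list is unchanged. The sums of the 6 remaining lists (neutrophil, hepatocyte, T and NK cell, sinusoidal endothelium, granulocytes other than neutrophils, and platelet and erythroid) had adjusted p from 0.0625 to 0.992. The part of these markers in the Clec7a difference was not tested. In bulk samples, fewer cells of a type and less RNA per cell cannot be told apart.

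**Figure D2:**
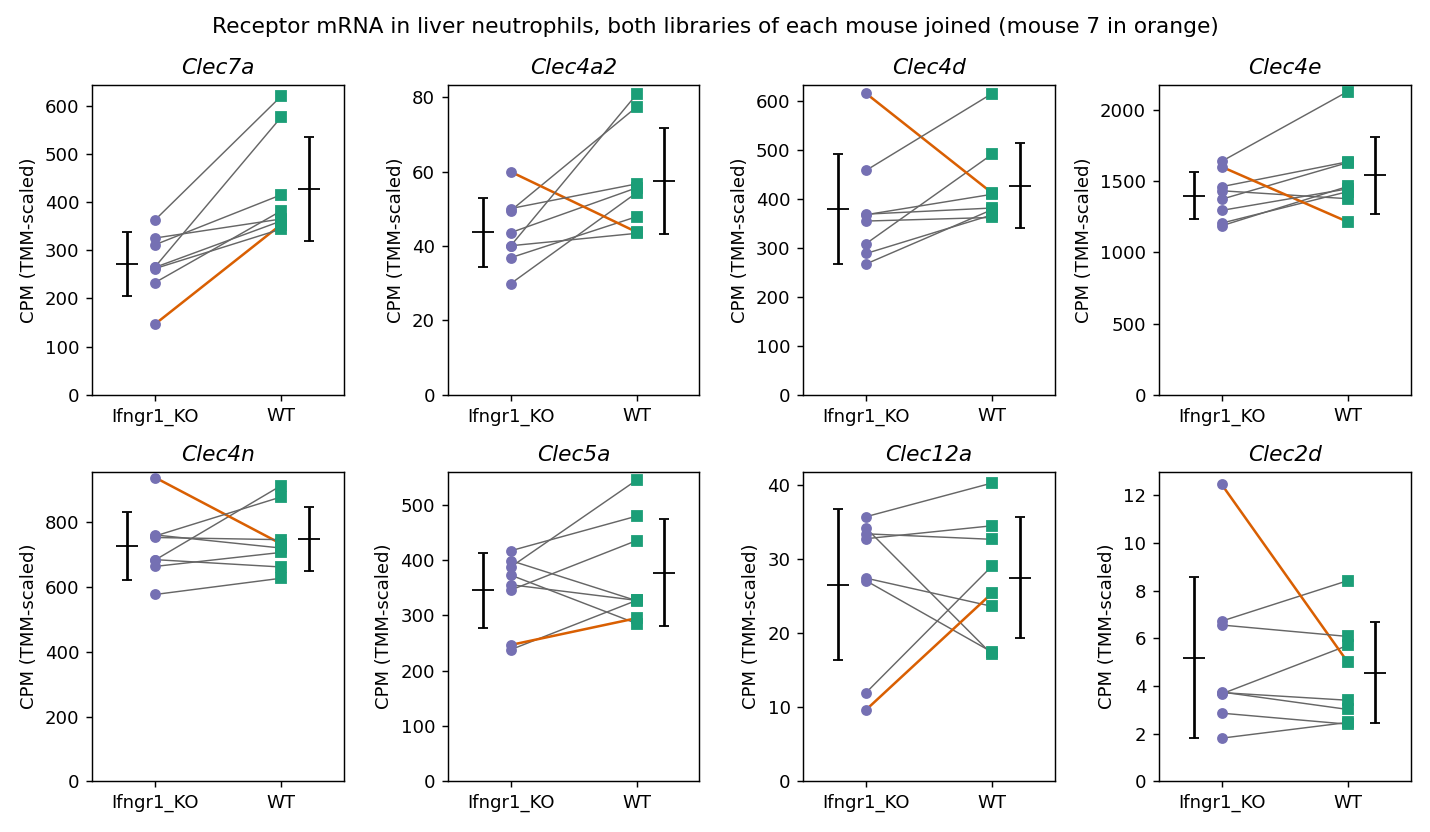
Level of each receptor in CPM by library, with the Ifngr1_KO library (circle) and the WT library (square) of each mouse joined by a line, mouse 7 in orange, and bars for mean and SD over 8 libraries beside each group. For Clec7a the Ifngr1_KO end is the lower one in all 8 mice, and for Clec4a2 and Clec4d in all but mouse 7.

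The other activating receptors were not called. Clec4d, which pairs with Mincle and the FcR gamma chain, had a lowest, median and highest level of 267, 361 and 615 CPM in Ifngr1_KO and 362, 395 and 615 CPM in WT. It was lower in Ifngr1_KO in 7 of 8 mice, and mouse 7, whose Ifngr1_KO library was the highest of that group, went the other way. Its log2 fold change of -0.20 (SE 0.14) had an adjusted p of 0.5005, with a 95% interval from 70.6% to 107% of the WT level. Without mouse 7 it was -0.31 with an adjusted p of 0.114.

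Clec4e had 1187, 1403 and 1640 CPM as lowest, median and highest level in Ifngr1_KO and 1215, 1454 and 2129 CPM in WT. It was lower in Ifngr1_KO in 6 of 8 mice, with a log2 fold change of -0.13 (SE 0.10, adjusted p = 0.560). At this depth of 16472 to 33943 counts per library its 95% interval was 78.2% to 107% of the WT level. Clec4n had 576, 717 and 936 CPM in Ifngr1_KO and 626, 725 and 911 CPM in WT. Its groups lay almost on top of each other, with a log2 fold change of -0.04 (SE 0.10, adjusted p = 0.861) and an interval of 83.4% to 113% of the WT level, the narrowest of the 8 on the log2 scale. The sign for Clec4n changed to 0.07 with library totals.

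Clec5a encodes MDL-1, which signals through the adaptor DAP12. It had 238, 364 and 417 CPM as lowest, median and highest level in Ifngr1_KO and 285, 327 and 544 CPM in WT. The Ifngr1_KO median was the higher one while the mean was the lower one (345 ± 67.5 CPM in Ifngr1_KO and 377 ± 96.0 CPM in WT, SD, n = 8 each). The WT libraries of mice 2, 4 and 9 were the 3 highest of the 16, and the groups overlapped. Clec5a had a log2 fold change of -0.12 (SE 0.13), with an adjusted p of 0.674, and 5 of 8 mice had the lower value in Ifngr1_KO.

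The inhibitory receptors differed in how their values spread. Clec4a2 encodes DCIR, which recruits phosphatases through an inhibitory motif. It had 29.8, 41.8 and 59.9 CPM as lowest, median and highest level in Ifngr1_KO and 43.4, 54.9 and 80.7 CPM in WT. It was lower in Ifngr1_KO in 7 of 8 mice, which with Clec7a and Clec4d makes 3 of the 8 receptors lower in at least 7 mice, against 11.4% of all genes tested. None of the 8 was higher in at least 7 mice, against 10.2% of all genes tested. The receptors were chosen with earlier results of these data known, so these shares are a description. The log2 fold change of -0.39 for Clec4a2 (SE 0.17) had an unadjusted p of 0.0452 and an edgeR adjusted p of 0.290. Without mouse 7 it was -0.51 with an adjusted p of 0.0834.

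Clec12a, an inhibitory receptor for uric acid crystals, had 9.67, 30.05 and 35.7 CPM as lowest, median and highest level in Ifngr1_KO and 17.1, 27.2 and 40.2 CPM in WT. The Ifngr1_KO libraries fell into 6 between 27.0 and 35.7 CPM and 2 at 11.98 and 9.67 CPM, those of mice 4 and 7. Clec12a had a log2 fold change of -0.12 (SE 0.28), with an adjusted p of 0.865, and it was 0.06 without mouse 7 and 0.05 without mouse 4. Its 95% interval of 60.2% to 141% of the WT level is wide, on 114 to 682 counts per library.

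Clec2d encodes Clr-b, a surface ligand that holds back natural killer cells through an inhibitory NKR-P1 receptor and that also binds histones. It had 1.82, 3.74 and 12.5 CPM as lowest, median and highest level in Ifngr1_KO and 2.41, 4.21 and 8.42 CPM in WT. The highest value was the Ifngr1_KO library of mouse 7. Its log2 fold change of 0.08 (SE 0.32) had an adjusted p of 0.920, and the log2 fold change was -0.09 without mouse 7. With 29 to 161 counts per library, differences between 65.1% and 173% of the WT level lie inside its 95% interval.

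**Figure D3:**
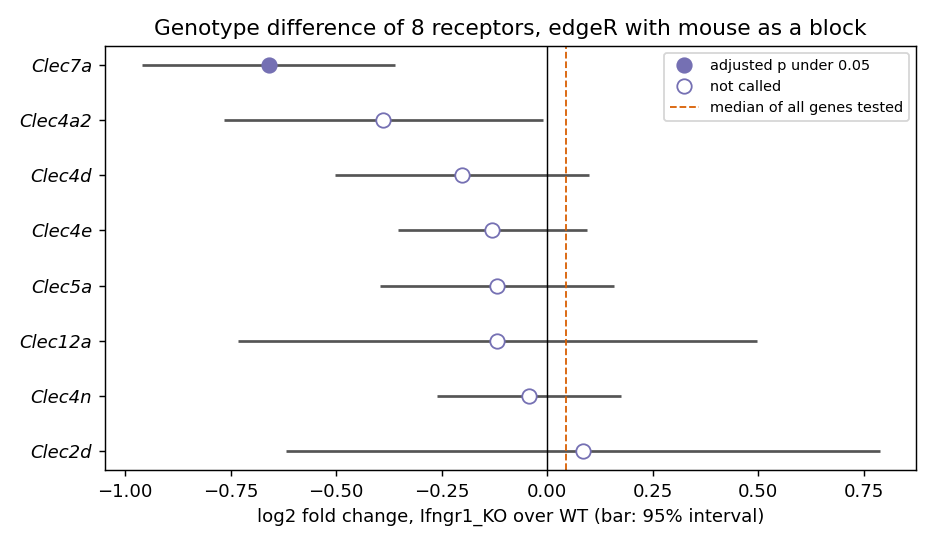
Log2 fold change of each receptor, Ifngr1_KO over WT, with the 95% interval from the edgeR fit, a filled point where the adjusted p was under 0.05, a solid line at 0 and a dashed line at the median of all genes tested (0.05). Clec7a is the only filled point, and the intervals of Clec12a and Clec2d are the widest.

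A call for Clec7a and none for another receptor does not show that they differ, so the within-mouse log2 ratios were compared between receptors. None of 28 pairs passed an adjusted p of 0.05 in exact two-sided sign-flip tests over 8 mice, and 6 had an unadjusted p under 0.05, of which 5 involved Clec7a. The ratio of Clec7a lay below that of Clec5a by 0.54 ± 0.27 on the log2 scale, below that of Clec4e by 0.53 ± 0.52 and below that of Clec4d by 0.46 ± 0.58 (SD, n = 8), each in 8 of 8 mice. The ratio of Clec4a2 lay below that of Clec2d by 0.47 ± 0.33 in 8 of 8 mice. Each of these 4 pairs had p = 0.00781, the smallest that 8 mice allow in this exact test. Their adjusted p over the 28 pairs was 0.0547. A lone pair at that smallest p could not pass over 28 pairs, however large its difference. The lack of a call therefore does not show that the receptors are alike. Clec7a and Clec4a2 differed by -0.28 ± 0.69 (exact p = 0.344, adjusted p = 0.566). The difference between Clec4d and Clec4e was -0.07 ± 0.18 (exact p = 0.313, adjusted p = 0.547).

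**Figure D4:**
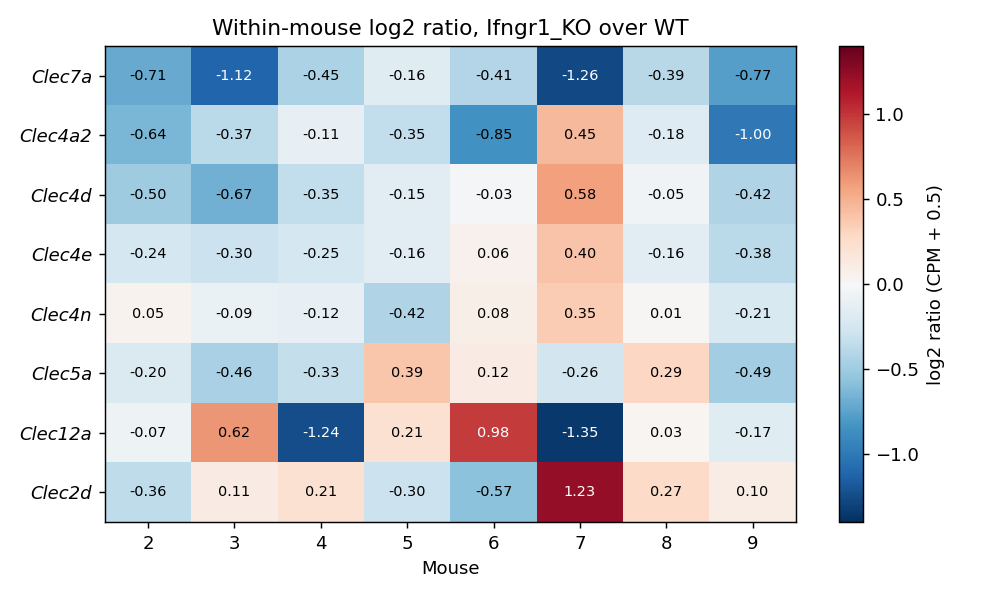
Log2 ratio of Ifngr1_KO over WT within each mouse (columns) for each receptor (rows), blue where Ifngr1_KO was lower and red where it was higher. Clec7a is below 0 in every mouse, and mouse 7 holds the highest ratio of Clec4a2, Clec4d, Clec4e, Clec4n and Clec2d and the lowest of Clec7a and Clec12a.

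Mouse 7 carried the extreme ratio for 7 of the 8 receptors. How often it did so among all genes tested was not counted. Its ratios were -1.26 for Clec7a and -1.35 for Clec12a, and 0.45 for Clec4a2, 0.58 for Clec4d, 0.40 for Clec4e, 0.35 for Clec4n and 1.23 for Clec2d. Its Ifngr1_KO library had the lowest median correlation with the other libraries (0.800) and a mitochondrial share of 2.503%, the highest of the 16. The parts of that share and of the library itself in these ratios were not tested.

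Some of the receptors varied together between libraries of 1 genotype. With the genotype means subtracted, r was above 0 for 18 of the 28 receptor pairs and below 0 for 10 over 16 libraries, and above 0 for 26 and below 0 for 2 without mouse 7. The lowest was -0.40, for Clec5a and Clec2d. Clec4d correlated with Clec4n at r = 0.74 and with Clec4e at r = 0.70 over 16 libraries, and at 0.59 and 0.78 over the 14 libraries without mouse 7. Clec7a had r = 0.07 with Clec4d and 0.30 with Clec4e over the 16 libraries, and 0.88 and 0.65 over the 14 without mouse 7, so these 2 values rest on the libraries of that mouse. These are descriptions, since both libraries of a mouse share an animal and all share the scaling. Among the 5162 genes whose log2 CPM averaged 3 or more, the gene most like Clec4d was Cxcl2, a neutrophil chemoattractant (r = 0.90, or 0.84 without mouse 7), followed by Bcl2a1b (0.88, or 0.86) and Sf3b6 (0.87, or 0.80), so Bcl2a1b was above Cxcl2 without mouse 7. The most like Clec7a were Amn1, Cmtr1 and Btg2 (0.87, 0.87 and 0.85, or 0.76, 0.76 and 0.73 without mouse 7). The first-ranked gene was Ube2b for Clec4e (r = 0.85), Gm26825 for Clec4n (0.93), Idh1 for Clec5a (0.90), Atp5f1 for Clec4a2 (0.82), Ensa for Clec12a (0.82) and Gabarap for the sparse Clec2d (0.97). Without mouse 7, Psma1 was above Atp5f1 for Clec4a2 and Ccnc above Ensa for Clec12a.

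The wider lectin family showed no called gene in either direction in edgeR's test, which called 2.8% of all genes tested. Of 57 other C-type lectin genes 20 were tested and 10 had no count in any library. The 20 had a median log2 fold change of -0.36, and 8 of them had an unadjusted p under 0.05, which 16.3% of all genes tested had. Among them Clec4a3, a close copy of Clec4a2, had 72.6 ± 14.6 CPM in Ifngr1_KO and 72.7 ± 17.2 CPM in WT (SD, n = 8 each). The copy Clec4a1 had 24.1 ± 2.43 CPM in Ifngr1_KO and 32.9 ± 5.29 CPM in WT. It was lower in Ifngr1_KO in 8 of 8 mice, as were 4.93% of all genes tested (log2 fold change -0.44, edgeR adjusted p = 0.142). The copy Clec4a4 had 6.70 ± 2.63 CPM in Ifngr1_KO and 6.18 ± 2.47 CPM in WT (0.09, adjusted p = 0.917). Within 100 kb of the 8 receptors, 7 other genes were tested and none was called in edgeR's test; among them, Olr1, the nearest tested gene to Clec7a, had a log2 fold change of -0.11 (adjusted p = 0.773) and Cd69 -0.50 (0.132). These neighbours were chosen after values were seen.

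The 2 most abundant adaptor genes were not called. Tyrobp, which encodes DAP12, the adaptor of MDL-1, averaged 4916 ± 1887 CPM in Ifngr1_KO and 4023 ± 855 CPM in WT. Fcer1g, which encodes the FcR gamma chain used by Dectin-2, Mincle and MCL (the product of Clec4d), averaged 3258 ± 1446 CPM in Ifngr1_KO and 2861 ± 538 CPM in WT (SD, n = 8 each). Of 24 adaptor and signalling genes 22 were tested and none was called in edgeR's test, against 2.8% of all genes tested. Of the 22, 6 had an unadjusted p under 0.05, against 16.3% of all genes tested. The median log2 fold change was -0.24. That median was 0.010 with the mitochondrial covariate. Without mouse 7 the value for Fcer1g changed sign, to -0.04. Card9, the adaptor below Syk, was sparse, with 4.05 CPM in Ifngr1_KO and 6.18 CPM in WT. Of 12 phosphatases and inhibitors 11 were tested and none was called. Of the 11, 3 had an unadjusted p under 0.05 in edgeR's test, against the same 16.3% of all genes tested. Of these 3, Dok2 (log2 fold change 0.82, edgeR adjusted p = 0.0652) and Dok3 (0.31, 0.151) were higher in Ifngr1_KO, and Ptpn6 was lower. The median log2 fold change of the list was -0.18. The median was 0.23 with the mitochondrial covariate, 0.064 without mouse 5, -0.021 without mouse 2 and -0.080 without mouse 7. Ptpn6, which encodes the phosphatase SHP-1 recruited by inhibitory motifs, had 1714 ± 535 CPM in Ifngr1_KO and 2224 ± 146 CPM in WT (log2 fold change -0.46, adjusted p = 0.288, or -0.26 and 0.114 without mouse 7). Tnfaip3, an inhibitor of NF-kB signalling, had 312 ± 185 CPM in Ifngr1_KO and 346 ± 143 CPM in WT. Without mouse 7, 4 genes of the 5 pathway lists were called lower and 1 higher, and with DESeq2 6 and 5.

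Among genes that these receptors can switch on, 1 of 13 tested fell and none rose, against 2.32% and 0.477% of all genes tested. Of the 13, 2 had an unadjusted p under 0.05 in edgeR's test, against 16.3% of all genes tested. The median log2 fold change of the list was 0.12. The gene that fell was Tnf, the cytokine tumour necrosis factor. Its lowest, median and highest levels were 757, 1148 and 1484 CPM in Ifngr1_KO and 1113, 1616 and 1832 CPM in WT. The groups overlapped, with 5 Ifngr1_KO libraries above the lowest WT library. Tnf fell in 8 of 8 mice to a mean of 1148 ± 228 CPM in Ifngr1_KO, against 1534 ± 292 CPM in WT (log2 fold change -0.42, SE 0.08, edgeR adjusted p = 0.0198). Il1b, the most abundant, had 7286 ± 996 CPM in Ifngr1_KO and 8034 ± 1749 CPM in WT (log2 fold change -0.13, adjusted p = 0.504). Cxcl2 had 3792 ± 1256 CPM in Ifngr1_KO and 2855 ± 554 CPM in WT, higher in Ifngr1_KO in 8 of 8 mice (0.37, adjusted p = 0.175), and it was called without mouse 7 (0.24, adjusted p = 0.0312) and with limma-voom (0.30, 0.0411). The call for Tnf was lost without the mouse block (-0.42, 0.165), with library totals (-0.31, 0.0873), with no filter (-0.45, 0.0723), with the mitochondrial covariate (-0.32, 0.354) and without mouse 3, 4, 5, 6, 8 or 9 (-0.42, -0.43, -0.41, -0.39, -0.43 and -0.42, at adjusted p of 0.0764, 0.0508, 0.0648, 0.0741, 0.0664 and 0.0573).

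Of 12 tested receptors that act beside the lectins on fungi and bacteria, 1 fell and none rose. Over all genes tested, 2.32% were called lower and 0.477% higher. Of the 12, 5 had an unadjusted p under 0.05 in edgeR's test, against 16.3% of all genes tested. They were Tlr2, Itgb2, Tlr6 and Trem3, lower in Ifngr1_KO, and Cd37, which was higher. The median of the list was -0.18 on the log2 scale. Adding the mitochondrial covariate gave 0.051, and leaving out mouse 7 gave -0.075. The gene that fell was Tlr2, which signals together with Dectin-1 on yeast particles. Its lowest, median and highest levels were 261, 546 and 678 CPM in Ifngr1_KO and 676, 788 and 1233 CPM in WT, and the groups met in 1 library of each. It averaged 525.6 ± 133 CPM in Ifngr1_KO and 860 ± 190 CPM in WT (log2 fold change -0.73, SE 0.15, edgeR adjusted p = 0.0290), lower in 8 of 8 mice. Its call was lost with library totals (-0.62, 0.0824), with the mitochondrial covariate (-0.30, 0.613) and without mouse 3, 5, 6, 8 or 9 (-0.74, -0.76, -0.72, -0.72 and -0.68, at adjusted p of 0.0852, 0.0612, 0.0833, 0.0907 and 0.0917). Cd14 had 4904 ± 739 CPM in Ifngr1_KO and 5000.3 ± 763 CPM in WT. Itgb2, a chain of complement receptor 3, which also binds beta-glucan, had 1374 ± 420 CPM in Ifngr1_KO and 1941 ± 188 CPM in WT (log2 fold change -0.56, adjusted p = 0.163).

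**Figure D5:**
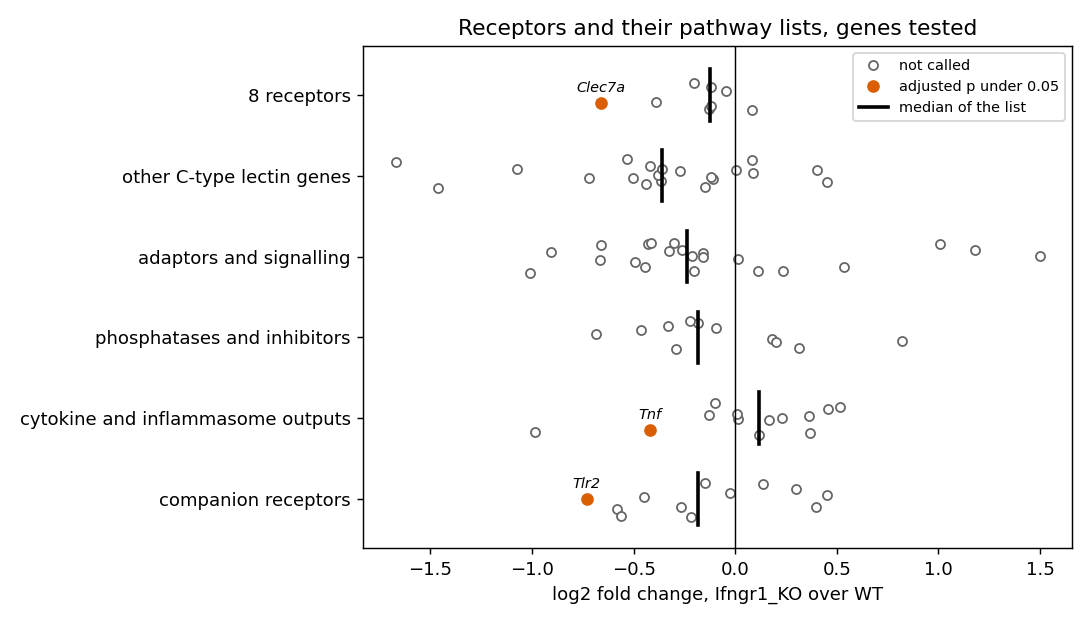
Log2 fold change, Ifngr1_KO over WT, of the 8 receptors and of the tested genes of 5 pathway lists, 1 point per gene, with filled points for an adjusted p under 0.05 and a black line at each list's median. Clec7a, Tnf and Tlr2 are the filled points, all below 0.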

How the data were processed

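The deposited table holds estimated counts per gene for 16 libraries, which the authors rounded to whole numbers. Salmon 0.14.2, DESeq2 1.22.1 and build mm10 are named without role in the submitters' processing notes, and the step from transcripts to genes is not given in the sources used here. Per the labels' protocols, libraries were made from 1 ng of RNA with oligo-dT capture and 13 PCR cycles, a kit that does not mark strand, so reads of antisense genes cannot be told apart. The libraries had no molecular identifiers. The intervals cover counting and the spread between libraries, which includes that of the genotype difference between mice, and no other source of error.

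Groups follow the labels, and the numbers 2 to 9 name a mouse that gave both libraries. Same-numbered libraries deviated together only weakly, with correlations of 0.032 to 0.383 (mean 0.16), against a mean of -0.021 between numbers. Genes were named with GENCODE M21, filtered with filterByExpr (9851 tested, holding 99.7% of counts), scaled by TMM and tested with edgeR 4.0.16 (quasi-likelihood, robust, mouse as block, Benjamini-Hochberg over all genes tested, threshold 0.05), in R 4.3.3. DESeq2 1.42.0 and limma-voom 3.58.1 were alternatives, beside other scalings and filters, no block, a mitochondrial covariate and each mouse left out. Correlations used log2(CPM + 0.5). Library measures and receptor pairs were compared with exact two-sided sign-flip tests over mice. The SE of a fold change is its size over the root of F. The fit was also run on simulated data, and no result here rests on that run.

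The receptors and lists were chosen with earlier results of these data known. The rule for named genes gave the 8 receptors and Ifngr1, from each pathway list up to 4 called genes and the 2 most abundant tested ones, from marker lists the most abundant gene, and for each receptor the 3 genes most like it. For some marker lists and receptors, not all genes of the rule are printed. Ly6c2, Adgre1, Ccr2, Vsig4, Clec4f, C1qb, Cd5l, Clec9a, Ltf, Ngp, Elane, Card9, Clec4a1, Clec4a4, Olr1 and Cd69 were named after their values were seen. So were Dok2, Dok3, Fcnb, Mpo, Tlr6, Trem3 and Cd37. A gene that this rule also names is not reported here.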

Additional observations from a re-analysis of the deposited data

Results flagged for a closer look

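In 40 groups of 8 libraries, each of 1 quantity in 1 genotype, the highest and the lowest library were compared with the rest, and 4 stood apart by more than 0.526 of their group's range. Chance alone flags about 1 in 20 groups. Clec4e was at 2129 CPM in the WT library of mouse 9, above the other 7 WT libraries. Clec2d was at 12.5 CPM in the Ifngr1_KO library of mouse 7, above the other 7 of that genotype. The T and NK cell markers summed to 30.9 CPM in the same Ifngr1_KO library of mouse 7. The mitochondrial share was 1.19% in the WT library of mouse 4, the highest of the WT libraries.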

How the results depend on the processing

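Clec7a stayed below 0 under all 16 alternatives, at -0.65 without the replicate block, -0.55 with library totals, -0.56 with the mitochondrial covariate, and -0.73 to -0.57 over the fits that left out 1 mouse, and it was called in 7 of the 16. The count of receptors called lower was 0 without the block, with library totals and with the covariate, and 0 to 1 with 1 mouse left out. Of all genes, 85 were called lower with the covariate, 572 with DESeq2, 425 with limma-voom and 144 to 334 with 1 mouse left out. Genes called higher numbered 102 with library totals, 31 with no filter, 126 with a mean CPM of at least 10, 8 with the covariate, 488 with DESeq2, 172 with limma-voom and 19 to 78 with 1 mouse left out. Library totals moved the median of all genes to 0.16, from 0.05. In the pathway lists, genes called lower numbered 1 without the block, 0 with library totals, 1 with no filter, 0 with the covariate, 6 with DESeq2 and 0 to 4 with 1 mouse left out. Those called higher numbered 2 with library totals, 2 with a mean CPM of at least 10, 5 with DESeq2, 3 with limma-voom and 0 to 1 with 1 mouse left out.

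Among the named genes, signs changed only for values that were not called. With the covariate the list medians also changed sign, to 0.010 for adaptors, 0.23 for phosphatases and 0.051 for companion receptors. Without mouse 5 that of phosphatases was 0.064. Clec4n was 0.068 with library totals, 0.041 with a mean CPM of at least 10, and -0.10 to 0.0095 with 1 mouse left out. Clec12a was 0.025 with limma-voom and -0.28 to 0.058 with 1 mouse left out. Clec2d was -0.25 with the covariate, -0.00061 with limma-voom and -0.087 to 0.19 with 1 mouse left out, and it was not tested at a mean CPM of at least 10. Clec4a3 was -0.0019 without the block, -0.021 with no filter, -0.27 with the covariate, -0.051 with limma-voom and -0.091 to 0.12 with 1 mouse left out. With the covariate, Tyrobp was -0.10, Fcer1g -0.36, Ptpn6 0.038, Tnfaip3 0.25 and Cd14 0.050. Cd14 was 0.084 with library totals and 0.058 with a mean CPM of at least 10, and Fcer1g was -0.040 to 0.19 with 1 mouse left out. The cause of these changes was not tested.

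With the longest transcript as length, Clec4d was at 323 CPM per kilobase in WT, and Clec12a at 8.19 in Ifngr1_KO and 8.50 in WT. Without the called gene, an alternative chosen after seeing the data, the monocyte sum differed by -211 CPM (Ifngr1_KO minus WT), the Kupffer cell sum by -1.69 CPM and the B cell sum by 1.05 CPM. Counts were lowest for Clec2d, at 29 to 161 per library.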
